A study of Mus musculus with 36 samples.

Results

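Mice that had breathed a floral-mint fragrance were compared with mice that had breathed no odor, in 6 pS6 immunoprecipitation RNA-seq libraries out of the 36 of the series. All were 8-week-old male C57BL/6J mice of wild-type genotype, and the labels name no transgene in any group. Each mouse was kept alone without odor for 4 h and then met 90 min of 10 µL of fragrance on filter paper in a dish (Floral + Mint Fragrance, a blend made by ScentOn) or of empty paper (No odor, the control), with 3 biological replicates in each group. The composition of the blend is not given in the labels. Olfactory epithelium was taken at once, and RNA was pulled down with an antibody to phosphorylated ribosomal protein S6. The batch label names these libraries together with 3 libraries after the floral fragrance alone and 3 after the mint fragrance alone, and those 6 serve below as points of reference. All 57010 genes of the deposited table entered, and 19204 of them had enough counts to be tested. The labels do not say whether a replicate is 1 animal or several, so the p-values measure the spread between these libraries.

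Odorants are detected by olfactory sensory neurons, and each mature neuron uses a single odorant receptor gene out of the very large receptor family. A bound receptor activates the G protein subunit Gnal (Golf), the cyclase Adcy3 and the cyclic nucleotide-gated channel, and the neuron fires. Firing is followed by phosphorylation of S6, so RNA on ribosomes that carry pS6 is enriched for the RNA of recently active neurons, and the receptor genes of those neurons rise in the pulled-down RNA. Receptors of related sequence are grouped into MOR families, and into class I, the older receptors that resemble those of fish, and class II, which holds most mouse receptors.

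Library totals of the 6 libraries ran from 23.3 to 26.4 M counts. Of these, 71839 to 135346 counts fell on the 1093 listed odorant receptor genes. Libraries of the tissue carried the defining markers of mature olfactory sensory neurons at high level: the 15 markers summed to 22709 to 24825 CPM (counts scaled to a fixed library total) with floral-mint and to 13990 to 15954 with no odor. Markers of bone were present too, at 4465 to 7308 CPM over 17 genes with floral-mint and 7874 to 11571 with no odor, and red blood cell markers reached 28441 to 50058 CPM over 19 genes. In material of this kind, fewer cells of a type and less RNA per cell cannot be told apart. No library of unprecipitated RNA was used here, so a change in the pulled-down RNA and a change in the tissue's RNA cannot be told apart either.

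Over all genes, edgeR's quasi-likelihood test called 1232 genes higher with floral-mint and 619 lower at a Benjamini-Hochberg adjusted p under 0.05, which is 6.42% and 3.22% of the genes tested. The count of calls depended on which library was left out. It was 839, 1743 and 903 without no-odor replicates 1, 2 and 3, against 1851 with all. Without floral-mint replicates 1, 2 and 3 it was 1189, 1151 and 1018. Each of these fits had a smaller group, which also lowers the power of the test. The split between directions leaned on the scaling: with libraries scaled to the median receptor gene, 438 genes were called higher and 676 lower, and the median of all genes moved to -0.11 on the log2 scale from -0.01.

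Most odorant receptor genes did not pass the test, and those that did were mostly higher. Of 846 receptor genes tested, 101 were called higher (11.9%) and 12 lower (1.42%), while 733 did not pass and 247 listed receptors had too few counts to test. Receptors that shared no near-identical transcript stretch (95% identity over 200 bases) with another receptor held 69 of 602 called higher. Those that shared such a stretch held 32 of 244. Close relatives among the 602 may still share reads. The median log2 change of all tested receptors was 0.04, and the middle of the 733 not called, from the lower to the upper quartile, ran from -0.32 to 0.28. Among the 101, 93 were at least 2-fold higher, 63 at least 4-fold, 30 at least 8-fold and 9 at least 16-fold, with a median log2 change of 2.27 and a range of 0.46 to 4.62. In all 113 called receptors the 3 libraries of one group lay wholly above those of the other, which held upwards for 17.2% and downwards for 14.9% of all genes. Floral-mint replicate 1 was the highest of its group for 85 of the 101 receptors. Without it 83 receptors were called higher, and all 83 were among the 101. With all 36 libraries of the series in one fit 77 were called higher, again all among the 101.

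The receptor with the smallest p was Olfr48 (ENSMUSG00000075072, MOR232-5, chromosome 2). Its level was 7.08, 7.59 and 5.34 CPM in the no-odor libraries and 130, 104 and 114 CPM with floral-mint. The groups were far apart, by 4.12 on the log2 scale (SE 0.132, edgeR adjusted p = 1.2e-10). The floral and the mint fragrance alone gave similar levels, at means of 142 and 143 CPM. Against the same controls, floral alone had 8.7% of all genes called higher and 5.35% lower, and mint alone 7.1% higher and 4.07% lower; these comparisons share their control libraries with that of floral-mint, so values are only given side by side.

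Olfr183 (ENSMUSG00000062105, MOR183-2, chromosome 16) was at 9.26, 8.37 and 8.37 CPM with no odor and at 156, 151 and 126 CPM with floral-mint. The log2 change was 4.06 (SE 0.141, edgeR adjusted p = 1.98e-10). Here the fragrances parted: the floral libraries held 10.1, 9.6 and 11.6 CPM, close to no odor, and the mint libraries 193, 263 and 190 CPM.

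Olfr167 (ENSMUSG00000045341, MOR272-1, chromosome 16) had the opposite pattern. It was at 5.77, 6.5 and 7.42 CPM with no odor and at 43.3, 43.8 and 48.7 CPM with floral-mint, a log2 change of 2.79 (SE 0.117, edgeR adjusted p = 1.51e-09). The floral libraries held 64.8, 61.1 and 52.1 CPM, and the mint libraries 6.61, 6.35 and 7.19 CPM, within the range of the controls.

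Olfr1260 (ENSMUSG00000042894, MOR232-2, chromosome 2) was among the higher receptors of the control libraries, at 15.8, 16.4 and 14.3 CPM, and stood at 168, 145 and 142 CPM with floral-mint. Its log2 change was 3.29 (SE 0.133, edgeR adjusted p = 1.13e-09). Olfr1123 (ENSMUSG00000043274, MOR264-17, chromosome 2) went from 3.2, 4.17 and 2.75 CPM to 81.8, 64.5 and 50.6 CPM, a log2 change of 4.28 (SE 0.215, edgeR adjusted p = 1.2e-08). Its 3 floral-mint libraries differed more among themselves than those of Olfr1260, yet the lowest was far above every control.

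The other 11 of the 16 receptors with the smallest p were Olfr169, Olfr181, Olfr171, Olfr1284, Olfr191, Olfr473, Olfr1180, Olfr477, Olfr187, Olfr170 and Olfr914. Their log2 changes ran from 2.48 for Olfr171 to 4.59 for Olfr1180. Olfr1180 was nearly silent without odor, at 0.498, 1.09 and 1.24 CPM, and reached 24, 21.3 and 22.4 CPM. Olfr1284 (0.928 to 18.5 CPM in the mean) shares a transcript stretch of at least 200 bases, at 95% identity or more, with each of Olfr1238, Olfr338 and Olfr731. The same holds for Olfr191 with Olfr193 and for Olfr477 with Olfr476. Reads from such stretches may have been shared between these genes. All 16 kept their call and direction under every alternative listed in the closing section.

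**Figure D1:**
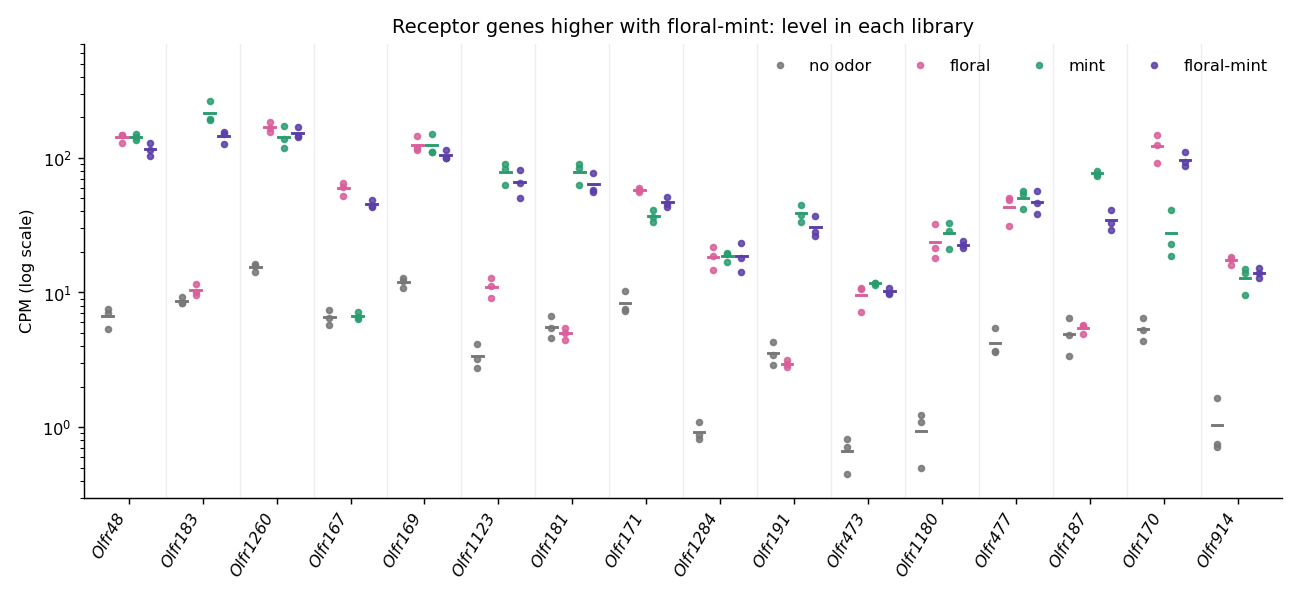
CPM in each of 12 libraries (points, log axis; bars are group means, n = 3) for the 16 receptor genes called higher with the smallest p, in order of p from left to right. All floral-mint points lie above all no-odor points; for Olfr183, Olfr181, Olfr191 and Olfr187 the floral points sit with no odor, and for Olfr167 the mint points do.

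The 12 receptors called lower moved far less, by -0.34 to -1.20 on the log2 scale. In the median they had more RNA in the control libraries. Their median level with no odor was 3.12 CPM per kilobase of exon, against 0.556 for the 101 called higher and 0.434 for those not called. Not all 12 were abundant: the lowest mean among them with no odor was 2.29 CPM and the highest 98.6 CPM. Olfr727 (MOR246-2, chromosome 14) was at 94.4, 100 and 101 CPM with no odor and at 78.9, 74.4 and 81 CPM with floral-mint, a log2 change of -0.34 (SE 0.0798, edgeR adjusted p = 0.0152). Olfr536 (MOR252-1, chromosome 7) went from 84.4, 93.6 and 75 CPM to 65, 56.4 and 61.9 CPM, a change of -0.47 (SE 0.104, edgeR adjusted p = 0.0107). Olfr1232 had the smallest p of the 12, at 10.6, 13.8 and 12.2 CPM against 6.44, 5.67 and 7.58 CPM, a change of -0.89 (SE 0.169, edgeR adjusted p = 0.00421). The groups did not overlap for any of the 12. Each of the 12 lost its call under at least 1 alternative; Olfr1232 and Olfr31 lost it only where all 36 libraries were fitted together, Olfr536 also without floral-mint replicate 2, and Olfr727 also without floral-mint replicate 2 or no-odor replicate 3. Not all abundant receptors were called: Olfr1348 was at 56.6, 67.5 and 43.1 CPM with no odor and 51.6, 47.2 and 51.2 CPM with floral-mint, and Olfr711 at 48.1, 57.4 and 47.4 CPM against 41.9, 33.3 and 37.1 CPM (edgeR adjusted p = 0.115).

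The make-up of the receptor RNA differed between the groups. Receptor genes took 0.466% ± 0.0490 (SD, n = 3) of the counts with floral-mint and 0.326% ± 0.0211 with no odor, and the groups did not overlap. The exact permutation test (2-sided) gave p = 0.1, the smallest that 3 against 3 libraries can give. The 101 receptors called higher summed to 392.8, 422.5 and 360.2 CPM with no odor and to 2591, 2007 and 1987 CPM with floral-mint. That is 12.8% and 46.3% of the summed CPM of all 1093 listed receptors. The 733 receptors not called and the 247 that could not be tested together summed to 2361 ± 197 CPM with no odor and 2298 ± 99.6 with floral-mint. Since the calls chose these sets on the same libraries, their sums describe the libraries and test nothing.

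**Figure D2:**
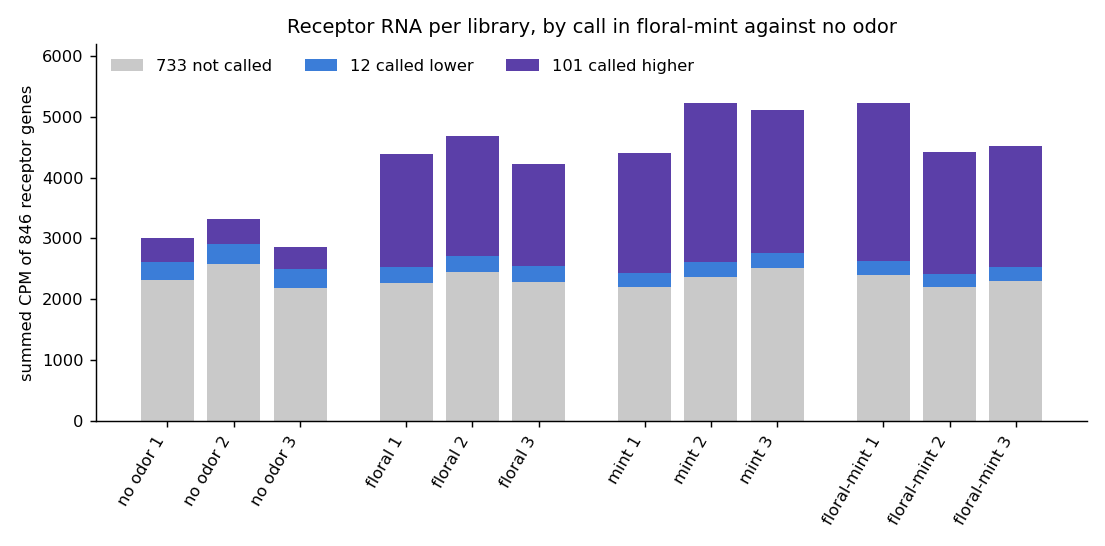
Summed CPM of all 1093 listed receptor genes in each of the 12 libraries (bars from 0), split by the call in floral-mint against no odor. The grey part holds the 733 receptors not called and also the 247 that could not be tested, although the axis and key count tested genes only. The part made of the 101 receptors called higher grows from 360.2 to 422.5 CPM in the no-odor libraries to 1987 to 2591 CPM in the floral-mint libraries, while the grey part stays between 2192 and 2577 CPM in both groups.

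By class, all receptors called with a class were class II. Of 744 class II receptors tested, 100 were called higher and 12 lower, and 1 more receptor called higher, Olfr30, has no MOR name. Of 86 class I receptors tested, edgeR called 0, with 3 higher and 2 lower at an unadjusted p under 0.05. DESeq2 called 0 as well, and the test without a filter on low counts called 1. Class I receptors had fewer counts to test, with a median level with no odor of 0.757 CPM against 1.44 CPM for class II. In the same batch, against the same controls, the floral fragrance alone had 1 of 86 class I receptors higher and 1 lower, and so did mint alone. In the other libraries of the series, tested against their own controls, class I receptors called higher numbered 10 of 97 with octanal and 12 of 97 with octanal and cis-3-hexenol together, odors that raised 21.4% and 23.1% of all receptors. They numbered 2 of 97 with cis-3-hexenol (7.93% of all receptors raised), 5 of 88 with decanal (7.61%), 1 of 88 with acetophenone (12.7%) and 3 of 88 with acetophenone and decanal together (13.3%). Whether floral-mint differs from any of these in class I was not tested.

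Receptors called higher lay in 50 of the 204 MOR families tested, 20 of which held at least 2 of them and 13 at least 3. Family MOR204 on chromosome 7 gave the most, with 9 of its 19 members (47.4%, against 11.9% of all receptors tested). Olfr473 led it, from 0.819, 0.451 and 0.718 CPM to 10.9, 9.86 and 9.81 CPM (log2 change 3.93), followed by Olfr477, Olfr508, Olfr502 and Olfr476 at log2 changes of 3.48, 3.16, 2.84 and 2.65. The other 10 members did not pass. The single fragrances set Olfr506 and Olfr478 of this family apart. Olfr506 was higher with mint (9.3 CPM) than with no odor (1.07 CPM) and stood at 0.303 CPM with floral, whereas Olfr478 stood at 0.434 CPM with mint and 1.58 CPM with floral.

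Family MOR183 on chromosome 16 had 4 of 6 members called higher, namely Olfr183, Olfr191, Olfr187 and Olfr186, at log2 changes of 4.06, 3.09, 2.81 and 2.60. With the floral fragrance alone the same genes changed by 0.27, -0.26, 0.15 and 0.31, and with mint alone by 4.63, 3.44, 3.97 and 4.03. Olfr196 and Olfr190, the other members, were at log2 changes of 0.36 and -0.13 and did not pass, though mint alone raised Olfr196 by 1.48 (edgeR adjusted p = 0.0056). Family MOR232, mostly on chromosome 2, had 4 of 9 called higher, with Olfr48 and Olfr1260 above, Olfr1255 at 2.98 and Olfr1259 at 1.19. Here both fragrances alone gave high values for Olfr48, Olfr1260 and Olfr1255, and Olfr1259 was at 1.03 with floral and 0.30 with mint. The reading frames of Olfr1255 and Olfr1259 are 96.1% identical, so these genes may have shared reads.

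All 3 members of MOR273 were called higher: Olfr170 at 4.17, Olfr169 at 3.13 and Olfr171 at 2.48. Their reading frames are 95.9% to 97.1% identical, so they may have shared reads and are not fully separate measurements. In MOR161 on chromosome 9, Olfr874 (0.57, 1.09 and 0.797 CPM to 16.2, 14.7 and 16 CPM), Olfr876 (0.249, 0.376 and 0.159 CPM to 5.29, 5.6 and 4.59 CPM) and Olfr145 (log2 change 2.09) were called higher out of 6 members. All 3 were near the control level with mint alone, at log2 changes of -0.53, 0.03 and -0.41. The reading frame of Olfr874 is 95.6% identical to that of Olfr875, a member not called, so these too may have shared reads. MOR256 had 7 of 43 called higher (16.3%), not far from the 11.9% of all receptors tested, led by Olfr93 at a log2 change of 3.57. MOR202, mostly on chromosome 19, had 6 of 20 (30%).

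**Figure D3:**
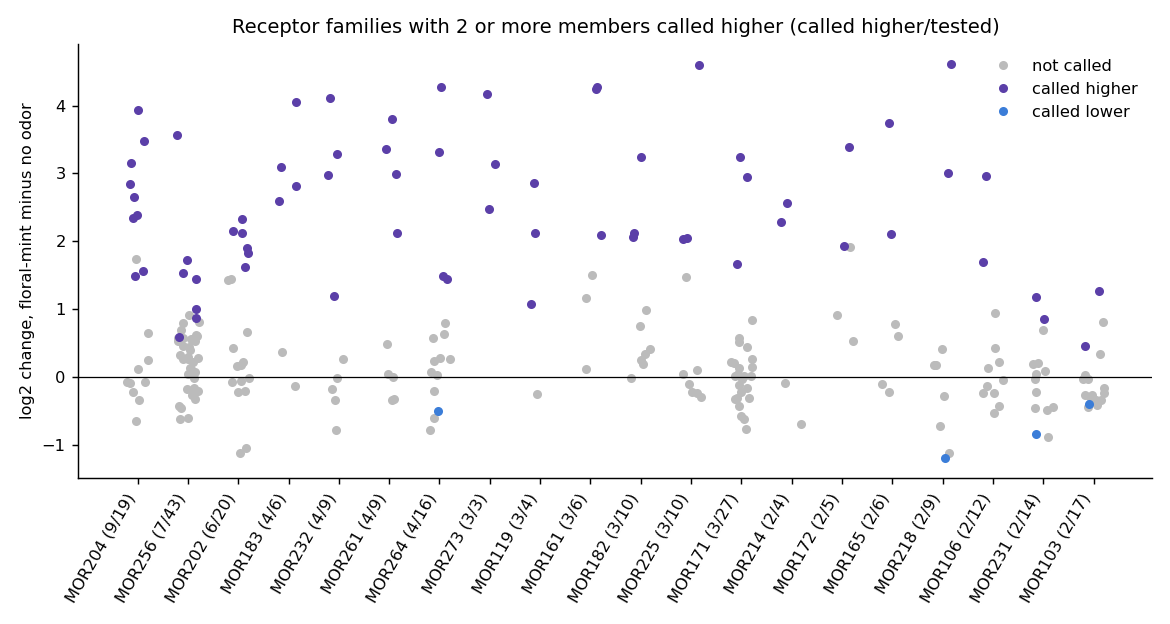
Log2 change with floral-mint against no odor (vertical axis) of every tested member (points) of the 20 receptor families with at least 2 members called higher, with called higher and tested in brackets. Members of one family spread widely, as in MOR204, where 9 of 19 were called higher with values up to 3.93; MOR273 has all 3 of 3.

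In the genome, receptors called higher lay in 25 of the 45 groups of neighbouring receptor genes, where neighbours were at most 1 Mb apart in the RefSeq annotation. The chromosome 16 group from Olfr173 to Olfr209 had 9 of 23 called higher (39.1%), and the next group on that chromosome, from Olfr164 to Olfr171, had 4 of 8, with Olfr166 lower. The largest group, on chromosome 2, had 19 of 163 called higher (11.7%), close to the 11.9% of all receptors.

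Receptors were also compared with their nearest relatives in sequence. For each receptor the nearest relative was taken as the best match of its longest open reading frame. Where the receptor was called higher, the nearest relative was called higher too in 41 of 100 cases, against 75 of 698 (10.7%) where the receptor was not called. Leaving out pairs of 95% identity or more, which could share reads, the counts were 24 of 72 (33.3%) and 63 of 552 (11.4%). For pairs of 85% to 95% identity they were 11 of 33 (33.3%) and 23 of 218 (10.6%). For pairs of 75% to 85% identity they were 10 of 22 (45.5%) and 21 of 138 (15.2%), and for pairs of 60% to 75% identity 3 of 17 (17.6%) and 19 of 196 (9.69%). These shares describe the families and were not tested, as both members of a pair can enter.

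Close relatives could also part. Olfr181 was at 5.41, 6.72 and 4.63 CPM with no odor and 77.4, 56.1 and 57.9 CPM with floral-mint. Its nearest relative Olfr180, 93.0% identical and also on chromosome 16, stayed at 2.95, 3.38 and 2.15 CPM against 4.01, 4.11 and 3.38 CPM (edgeR adjusted p = 0.291). Olfr191 reached 36.8, 27.9 and 26.4 CPM, while Olfr196, 91.3% identical, stood at 2.32, 1.21 and 1.3 CPM with floral-mint and 1.17, 1.54 and 1.04 CPM with no odor. Olfr46 (MOR253-8, chromosome 7) reached 103, 69.4 and 62.4 CPM from 10.5, 8.68 and 8.57 CPM, a log2 change of 3.08, and Olfr538, 94.3% identical, was at 2.28, 2.58 and 2.47 CPM against 2.39, 3.68 and 1.67 CPM. For each pair, the 120 bases of the aligned reading frames that differ most are shown. Whether any of the differing bases bear on the response was not tested. Capitals mark the differing bases, and positions count from 1 at the A of the start codon (GENCODE transcripts, vM21).
Olfr181, bases 1 to 120: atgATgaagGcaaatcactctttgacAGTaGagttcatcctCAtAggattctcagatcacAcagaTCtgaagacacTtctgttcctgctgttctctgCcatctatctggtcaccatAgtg
Olfr180, bases 1 to 120: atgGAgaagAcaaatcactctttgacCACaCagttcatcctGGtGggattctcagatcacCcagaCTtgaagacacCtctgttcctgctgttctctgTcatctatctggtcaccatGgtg
Olfr191, bases 22 to 141: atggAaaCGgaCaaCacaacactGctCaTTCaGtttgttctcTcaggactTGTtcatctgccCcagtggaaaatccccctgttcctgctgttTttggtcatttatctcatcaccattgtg
Olfr196, bases 1 to 120: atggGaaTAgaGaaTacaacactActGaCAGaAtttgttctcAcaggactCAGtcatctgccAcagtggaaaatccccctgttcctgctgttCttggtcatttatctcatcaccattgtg
Olfr46, bases 399 to 518: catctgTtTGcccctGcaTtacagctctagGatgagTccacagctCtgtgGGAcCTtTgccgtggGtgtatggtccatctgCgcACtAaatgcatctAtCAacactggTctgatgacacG
Olfr538, bases 399 to 518: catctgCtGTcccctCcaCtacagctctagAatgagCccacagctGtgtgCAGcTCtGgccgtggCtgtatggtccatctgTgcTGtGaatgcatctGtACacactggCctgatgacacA
The reading frames differed at 68 of 954 aligned bases between Olfr181 and Olfr180, at 81 of 930 between Olfr191 and Olfr196, and at 55 of 957 between Olfr46 and Olfr538. The stretches shown hold 16, 17 and 24 of these differences, in that order, so most of the differing bases lie outside them.

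The floral-mint libraries were next set against each single fragrance, a comparison from which the control libraries drop out. Against floral, 18 receptor genes were higher with floral-mint and 0 lower, among 23 genes called in all (0.115% of genes higher and 0.00521% lower). At an unadjusted p under 0.05 in edgeR 80 receptors were higher and 43 lower, and DESeq2 called 22 higher and 4 lower. The strongest were Olfr183 (log2 difference 3.79, SE 0.139, edgeR adjusted p = 8.61e-10), Olfr181 (3.68), Olfr191 (3.35), Olfr187 (2.66), Olfr357 (3.05) and Olfr1123 (2.57). Of the 18, 17 were also called higher than no odor. By mean level, 17 of the 18 stood lower with floral-mint than with mint alone, at a median of 54.7% of the mint level, and Olfr357 was at 16.2 CPM against 16.1 CPM with mint. In the test against mint, 5 of them were called lower with floral-mint.

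Against mint, 11 receptor genes were higher with floral-mint and 7 lower, among 20 genes called in all (0.0625% of genes higher and 0.0417% lower). Those higher were led by Olfr167 (log2 difference 2.76, SE 0.119, edgeR adjusted p = 8.57e-09), Olfr874 (4.78), Olfr46 (3.17), Olfr876 (4.24), Olfr145 (2.50) and Olfr113 (4.61). All 11 were called higher than no odor. By mean level, 7 of them stood lower than with floral alone, at a median of 90.7% of the floral level over the 11. Olfr113 held only 0.142, 0.0376 and 0 CPM with no odor, so its fold rests on few counts.

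The 7 receptors lower with floral-mint than with mint were Olfr281, Olfr506, Olfr1087, Olfr187, Olfr1047, Olfr30 and Olfr881. Olfr281 (MOR160-5, chromosome 15) was at 15.3, 13.1 and 13.6 CPM with no odor, 104, 143 and 124 CPM with mint and 47, 23.9 and 26.5 CPM with floral-mint. The 3 groups did not overlap, and floral-mint lay 1.93 below mint on the log2 scale (edgeR adjusted p = 0.000861). Olfr1087 (MOR188-5, chromosome 2) was at 3.74, 9.78 and 9.6 CPM with mint but at 0.926, 1.1 and 1.26 CPM with floral-mint and 1.21, 0.976 and 1.12 CPM with no odor. Its floral-mint and no-odor libraries overlapped fully, and the difference from mint was -2.81 (edgeR adjusted p = 0.00327). Olfr506 stood at 3.04 CPM with floral-mint, 9.3 with mint, 1.07 with no odor and 0.303 with floral, and differed from floral by 3.30 and from mint by -1.61. Of the 7, 5 were higher with floral-mint than with no odor, the exceptions being Olfr1087 and Olfr881.

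**Figure D4:**
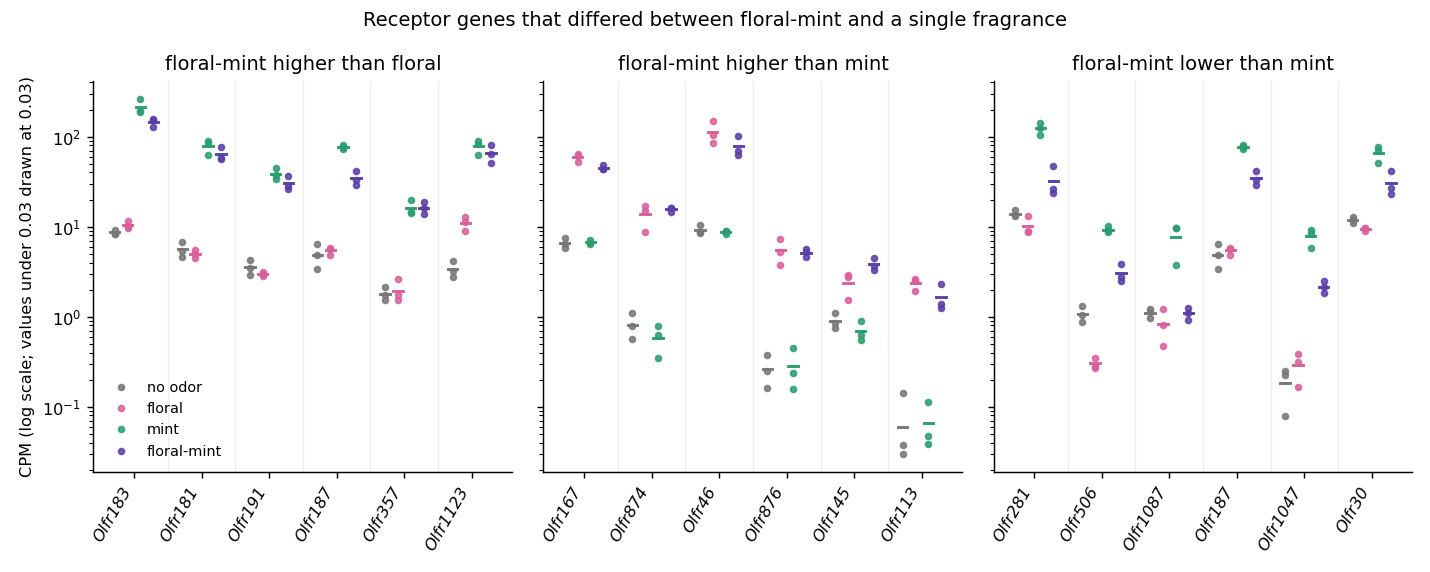
CPM in each library (points, log axis; bars are means, n = 3) for the 6 receptor genes with the smallest p in each direct comparison of floral-mint with a single fragrance. For the receptors higher than with floral (left), the floral-mint means lie between those of floral and mint, except for Olfr357, which is at the mint level. Over all 18 such receptors the median is 54.7% of the mint level. For those higher than with mint (middle), the median over all 11 is 90.7% of the floral level. For those lower than with mint (right), the floral-mint points lie below the mint points, and for Olfr1087 they overlap the no-odor points.

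Other mice of the series, exposed to pure odorants or to mixtures of a pair of them, with their own controls in separate batches, showed which of these receptors other odors raise. Of the 101 receptors called higher with floral-mint, 69 were also called higher with at least 1 of those odorants or mixtures and 32 with none. The 32 include receptors that could not be tested in a batch. Of the 101, 96 were tested in the acetophenone and decanal batch and 94 in the octanal and cis-3-hexenol batch. The share of all receptors called with at least 1 of these odors was not computed, so the 69 have no background to be set against. Octanal shared 47 receptors, which is 46.5% of the floral-mint list (94 of its 101 could be tested there), against 21.4% of all receptors raised by octanal. The 47 are 25.5% of the octanal list, against the 11.9% of all receptors called higher with floral-mint. Acetophenone shared 30 (29.7% of the floral-mint list, against 12.7% of all receptors raised by acetophenone). Cis-3-hexenol shared 22 (21.8%, against 7.93%) and decanal 10 (9.90%, against 7.61%). As shares of each odor's own list these were 27.3%, 32.4% and 15.2%, against the same 11.9%. Olfr183 stood at 67.5 CPM with octanal and 87.2 CPM with cis-3-hexenol against 11.1 CPM in their controls. Olfr874 stood at 27.3 CPM with acetophenone against 0.745 CPM, and Olfr46 at 33.6 CPM with octanal against 3.28 CPM. Olfr1260 and Olfr181 were not called with any of these odors. The differences between batches were not tested.

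Genes that serve the neuron behind the receptor were higher as well. Omp, the olfactory marker protein of mature sensory neurons, was at 7500, 7402 and 6587 CPM with no odor and at 11643, 12062 and 11672 CPM with floral-mint, a log2 change of 0.72 (SE 0.0521, edgeR adjusted p = 5.31e-07). Of 15 markers of mature olfactory sensory neurons, 9 were called higher and 0 lower, with a median log2 change of 0.42 against -0.01 for all genes. With libraries scaled to receptor genes 6 of the 15 were called, again with 0 lower. Beside this list, that for immature neurons had 1 higher (Dbn1) and 1 lower (Dpysl3) of 11, with Gap43 at a change of 0.03. No lower call in the mature list came from DESeq2 or at an unadjusted p under 0.05 in edgeR either (0 in both).

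In the transduction list, which shares 7 of its called genes with the markers above, 10 of 20 genes were called higher (50%) and 1 lower (5%). The shares of all genes were 6.42% and 3.22%. With scaling to receptor genes 6 of the list were called higher and 2 lower. Gng13, the G protein gamma subunit of the cilia, went from 382, 394 and 331 CPM to 931, 1115 and 1045 CPM (log2 change 1.48, SE 0.105, edgeR adjusted p = 4.35e-07), and its groups were far apart. Stoml3, a stomatin-like protein of the cilia, changed by 0.80. Cnga2, the main subunit of the cyclic nucleotide-gated channel, changed by 0.52, and Rtp2, which helps receptors reach the cell surface, by 0.50; both lost the call where all 36 libraries were fitted together. Gnal, the G protein alpha subunit, stood at a change of 0.28 and did not pass (edgeR adjusted p = 0.0823), and Gnas, the related subunit used in most other cells, fell by 0.37 on the log2 scale, a call likewise lost with 36 libraries. In the list for ending the response and adaptation, 7 of 25 were called higher and 0 lower (0 lower also by DESeq2 and at an unadjusted p under 0.05), yet the median was -0.14. With scaling to receptor genes 4 were called. Those called included Vsnl1 (0.78), a neuronal calcium sensor, while the receptor kinase Grk3 stood at -0.51 and did not pass.

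Of 37 immediate early genes and phosphatases that follow activity, 14 were called higher (37.8%) and 2 lower (5.41%, Klf4 and Dusp6). Over all genes the shares were 6.42% and 3.22%. The list's median log2 change was 0.15, and scaling to receptor genes gave 9 higher and 3 lower. Nr4a1, a nuclear receptor, went from 54.5, 24.7 and 61.6 CPM to 178, 147 and 164 CPM (log2 change 1.80, SE 0.245, edgeR adjusted p = 0.000385). Dusp14, a phosphatase of MAP kinases, had the smallest p of all genes other than receptors and receptor pseudogenes, at 227, 238 and 214 CPM against 601, 550 and 501 CPM (log2 change 1.28, SE 0.0909, edgeR adjusted p = 4.35e-07). Maff, a small Maf transcription factor, was very even within groups, at 9.22, 9.31 and 9.29 CPM against 26, 25.3 and 25.8 CPM (log2 change 1.47). Fosb (2.14) and Egr4 (1.32) were called higher. Fos itself was not, at 53, 16.6 and 40.6 CPM against 48.7, 41.7 and 62.6 CPM (log2 change 0.47, edgeR adjusted p = 0.351), and neither were Egr1 (-0.47) or Arc (-0.15). The groups overlapped for these, and no-odor replicate 2 was the lowest control library for Fos, Fosb and Nr4a1.

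Genes for neuronal output and wiring were called higher in part. A list of 26 neuronal genes that odors raise in these data, which is no independent evidence of direction as it was drawn from them, had 15 called higher and 0 lower (0 lower by DESeq2, 1 at an unadjusted p under 0.05). Lrrc3b went from 97.7, 121 and 65.2 CPM to 467, 379 and 374 CPM, a log2 change of 2.10. S100a5, a calcium-binding protein of mature sensory neurons, was at 1769, 2020 and 1357 CPM against 4441, 5321 and 4424 CPM, a log2 change of 1.46. Kcng1, a modifier subunit of voltage-gated potassium channels, changed by 2.01, Heg1 by 1.53 and Nptx2, a neuronal pentraxin that gathers glutamate receptors, by 1.35. In the list for axon sorting and the glomerular map, 7 of 26 were called higher (26.9%, against 6.42% of all genes). Only 1 was called lower (3.85%, against 3.22% of all genes). Kirrel2, an adhesion protein whose level in sensory axons depends on activity, went from 218, 226 and 165 CPM to 598, 592 and 581 CPM (log2 change 1.54, SE 0.137, edgeR adjusted p = 5.32e-06). Its counterpart Kirrel3 changed by 0.62, the protocadherin Pcdh10 by 2.51 and the semaphorin Sema7a by 1.64. The call of Kirrel3 was lost where all 36 libraries were fitted together.

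Genes of the synapse and of excitability were higher in part. Of 25 presynaptic genes 8 were called higher (32%, against 6.42% of all genes) and 0 lower. DESeq2 called 0 lower too, as did edgeR at an unadjusted p under 0.05. Among those higher were Snap25 (0.61), Syp (0.64) and Vamp2 (0.43), parts of the machinery of transmitter release. With scaling to receptor genes 5 were called. Of 31 channel and pump genes 6 were called higher (19.4%, against 6.42% of all genes). The 1 called lower (3.23%) was near the 3.22% of all genes. Kcnn2, a calcium-activated potassium channel, stood at 0.69 and Atp1b1, a subunit of the sodium pump, at 0.53.

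Genes of oxidative phosphorylation were higher in large part. Of 80 nuclear genes of the respiratory chain and ATP synthase, 42 were called higher and 0 lower, with a median log2 change of 0.42, and 69 had all floral-mint libraries above all controls (17.2% of all genes did). DESeq2 called 54 higher and 0 lower. Ndufv3 of complex I (0.75), Cox5b and Ndufa4, subunits of cytochrome c oxidase (0.75 and 0.71), and Atp5mpl and Atp5k of ATP synthase (0.88 and 0.75) were the strongest. Among 11 mitochondrially encoded genes 4 were called higher, led by mt-Co3, a cytochrome c oxidase subunit, from 9.04, 10.7 and 15 CPM to 26.8, 31.9 and 32.8 CPM (log2 change 1.40). Of 81 ribosomal protein genes 2 were called higher (2.47%, below the 6.42% of all genes) and 0 lower, at a median of 0.15. With libraries scaled to receptor genes, 5 of the 80 nuclear genes were called, the list's median was 0.33, and the ribosomal list had 0 called and a median of 0.05.

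**Figure D5:**
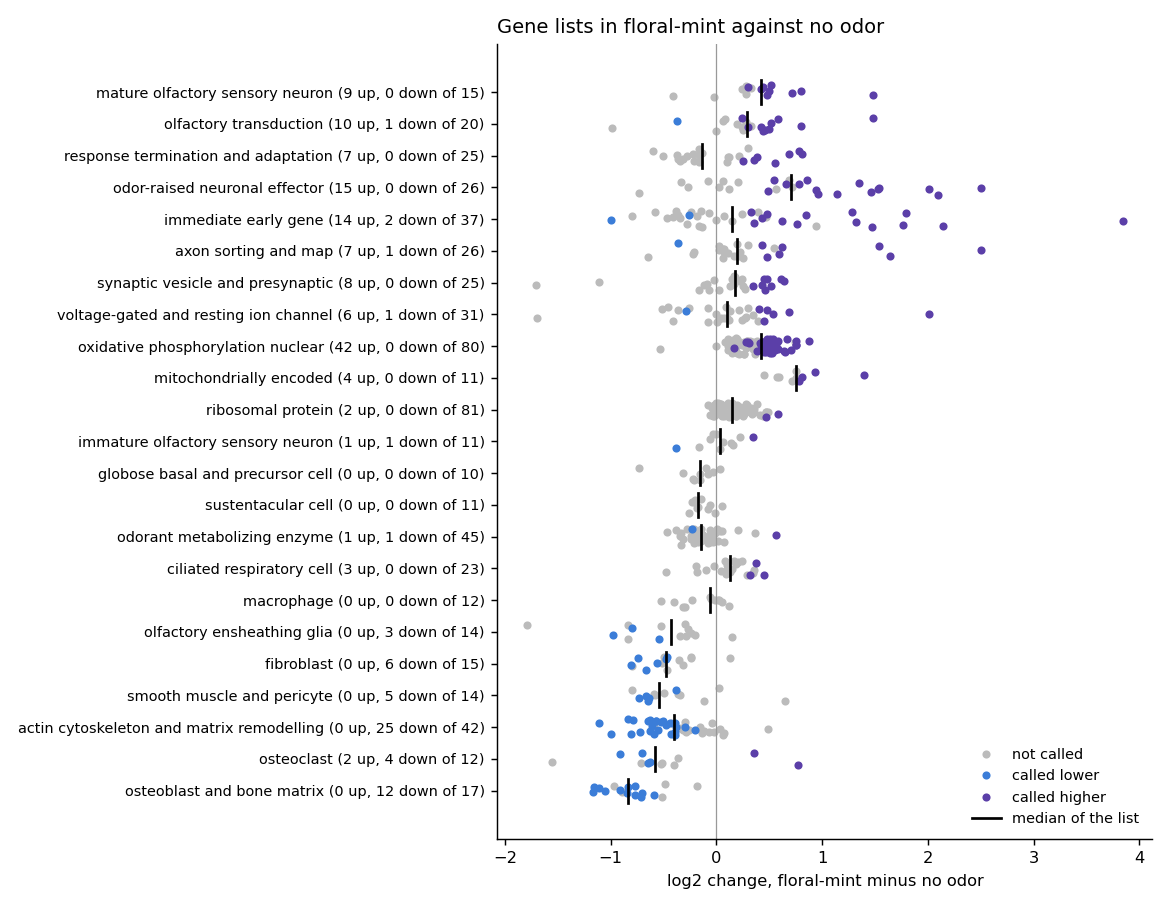
Log2 change with floral-mint against no odor (horizontal axis) of the tested members (points) of 23 gene lists, with the median as a black bar and the counts called beside each name; mt-Nd3, at 0 in all no-odor libraries, is left out. Medians lie at 0.42 for mature neuron markers and for nuclear respiratory chain genes, and at -0.83 for bone and -0.41 for cytoskeleton genes; supporting and basal cell markers hold 0 calls.

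Lists for bone, connective tissue and the cytoskeleton held genes called lower. Of 17 markers of osteoblasts and bone matrix 12 were called lower and 0 higher, at a median log2 change of -0.83, and their summed level was 9732 ± 1848 CPM with no odor and 5841 ± 1424 with floral-mint. The groups did not overlap in this sum. Spp1, osteopontin, was at 2469, 2192 and 3185 CPM against 1104, 1709 and 1346 CPM (log2 change -0.92, SE 0.134, edgeR adjusted p = 0.000673). Sp7, the transcription factor of osteoblasts, changed by -1.17 and Mmp13, a collagenase, by -1.11. Bglap, osteocalcin, was at 541, 385 and 530 CPM against 258, 434 and 329 CPM and did not pass (edgeR adjusted p = 0.0966). No member was called higher by DESeq2 or at an unadjusted p under 0.05 (0 in both). Of 12 osteoclast markers 4 were called lower, among them the protease Ctsk (-0.63), and 2 higher, Nfatc1 (0.77) and Ckb (0.36), both of which other cells also express.

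Of 42 genes of the actin cytoskeleton and matrix remodelling, 25 were called lower and 0 higher (0 higher by DESeq2 and at an unadjusted p under 0.05), with a median of -0.41. They included Mmp14, a membrane-bound metalloprotease (-0.62), the tropomyosins Tpm1 and Tpm4 (-0.61 and -0.58), the calponin Cnn2 (-0.72) and the tubulin Tubb6 (-0.81). Of 15 fibroblast markers 6 were called lower, with Lum at -0.74 and Postn at -0.81, both proteins of the extracellular matrix. Of 14 smooth muscle and pericyte markers 5 were called lower. Car3, a carbonic anhydrase abundant in fat, had the smallest p of all genes called lower, at 411, 344 and 436 CPM against 157, 224 and 170 CPM (log2 change -1.11, SE 0.134, edgeR adjusted p = 0.000119). Olfactory ensheathing glia, which wrap the axons of sensory neurons, had 3 of 14 markers called lower (21.4%, against 3.22% of all genes). They were led by Fabp7 (-0.80, a call lost without no-odor replicate 3). The sum for osteoblasts and bone matrix was lower in every floral-mint library than in every no-odor library. So were the sums for fibroblasts, smooth muscle and fat, while the sum of the mature neuron markers was higher. The osteoclast sum was also higher, at 5361 to 5901 CPM with floral-mint and 4576 to 4876 CPM with no odor. Most of its members went the other way, so this sum does not describe them. Their median log2 change was -0.58, and 4 of the 12 were called lower. For 9 of the 12 all floral-mint libraries lay below all controls. The part of these shifts in the neuronal results was not tested.

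Other cells of the epithelium gave few calls. Of 11 sustentacular cell markers edgeR called 0, with 0 higher and 3 lower at an unadjusted p under 0.05 and 2 lower by DESeq2, and their sum was 12126 ± 995 CPM with no odor and 11008 ± 746 with floral-mint. Cyp2g1, a cytochrome P450 of these cells, stood at -0.17. Of 10 globose basal and precursor cell markers edgeR called 0 (4 lower at an unadjusted p under 0.05, 1 lower by DESeq2), and of 12 macrophage markers 0 (3 lower at an unadjusted p under 0.05, 1 lower by DESeq2). Red blood cell markers had 0 of 19 called, 0 at an unadjusted p under 0.05 and 0 by DESeq2. Among 45 enzymes that metabolize odorants, Sult1d1, a sulfotransferase, was called higher (0.56) and the epoxide hydrolase Ephx1 lower (-0.23, a call that most alternatives ended). Of 23 markers of ciliated respiratory cells 3 were called higher (Rsph1, Cfap126 and Tekt1), which is 13.0% against 6.42% of all genes. All 3 calls were lost with libraries scaled to receptor genes.

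CREB, a transcription factor switched on by cAMP and calcium signals, binds the cAMP response element TGACGTCA, an 8-base palindrome that reads the same on both strands. In the RefSeq promoter table of build GRCm38.p6 (250 bases before to 50 after the start site), 588 of 32851 windows held the element (1.79%). There, 23 of the 29 members of the immediate early and odor-raised lists called higher had a promoter, and 3 of those held the element (13.0%). Of the 34 members not called higher 26 had a promoter, and 3 of those held it (11.5%). Of the protein-coding genes tested 77.4% had a promoter there, and of these 3.35% held it. With under 80% of genes matched, the check of shares is void, and a match is a description of the letters only. The 200 bases before the start site of these 3 genes follow, chosen because they hold the element, which is in capitals.
Maff, chr15:79347320-79347519, plus strand: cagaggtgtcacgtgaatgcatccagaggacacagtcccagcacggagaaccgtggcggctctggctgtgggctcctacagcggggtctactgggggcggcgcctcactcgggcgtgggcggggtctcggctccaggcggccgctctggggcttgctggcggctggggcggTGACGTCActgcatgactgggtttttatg
Cartpt, chr13:99900684-99900883, minus strand: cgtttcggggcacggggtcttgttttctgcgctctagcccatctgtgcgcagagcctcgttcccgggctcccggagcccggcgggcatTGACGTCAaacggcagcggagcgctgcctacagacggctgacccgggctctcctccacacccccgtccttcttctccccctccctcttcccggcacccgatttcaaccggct
Dusp1, chr17:26508473-26508672, minus strand: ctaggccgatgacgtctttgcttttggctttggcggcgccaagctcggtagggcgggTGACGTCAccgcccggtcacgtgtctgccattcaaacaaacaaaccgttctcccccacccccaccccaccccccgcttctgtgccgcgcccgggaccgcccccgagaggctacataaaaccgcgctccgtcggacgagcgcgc
The element starts 29, 112 and 143 bases before the start site in Maff, Cartpt and Dusp1. Cartpt, which encodes a neuropeptide, was at 47.6, 57.5 and 46.6 CPM with no odor and 94.8, 96.7 and 104 CPM with floral-mint (log2 change 0.96). Dusp1, a phosphatase of MAP kinases, was at 117, 115 and 108 CPM against 154, 132 and 151 CPM (log2 change 0.36, edgeR adjusted p = 0.0121).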

How the data were processed

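The authors deposited expected counts per gene, that is, estimated counts of which 15.3% to 16.4% per library were fractional in the 6 libraries compared; they were rounded for the tests. Build GRCm39, R 4.4.2, Salmon 1.10.1 and STAR 2.7.10b are listed in the submitters' processing notes; the gene annotation and the step that gave the counts are not given in the sources used here. Names, MOR families and neighbours came from GENCODE vM21 and RefSeq tables of build GRCm38.p6, so positions of genes are not given. Of 57010 identifiers 52029 were named; the rest held 0.284% to 0.336% of counts. Expected counts split a read between similar genes, so receptors that share a near-identical transcript stretch (95% identity over 200 bases, blastn 2.17.0) are uncertain: 244 of the 846 tested.

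The 12 libraries of the batch were fitted together with 4 groups in edgeR 4.0.16 (R 4.3.3): filterByExpr (minimum count 10, total 15), TMM, glmQLFit, 2-sided glmQLFTest, prior count 0.125, Benjamini-Hochberg over all genes tested, calls at adjusted p under 0.05. Standard errors came from the F statistic. CPM used TMM-scaled library sizes. Single values were compared by exact permutation. The other sets were fitted alone in the same way. Longest reading frames of at least 800 bases were aligned with blastn over at least 70% of their length. DESeq2 1.42.0 and other settings were alternatives. The fit was tested on simulated counts. Replicates were checked for duplicates and none were found. Same-numbered libraries of the groups did not vary together (r = -0.03, -0.17 and -0.01), so numbers do not pair them.

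Among genes whose groups do not overlap, the text names by smallest p 16 receptors higher, 12 lower and 10 other genes each way. Pseudogenes and predicted genes were left out of the other genes. Overlap was no bar for the rest. By smallest p these are up to 5 called members of each list and up to 6 receptors each way against a single fragrance. The first 2 members of each list and the 5 receptors with the highest mean CPM with no odor were also taken. Other names were chosen after their values were seen. The members, lists and rules were chosen with earlier results of these data known.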

Additional observations from a re-analysis of the deposited data

How the results depend on the processing

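Of 130 named genes with a call, 66 kept direction and call under every alternative run and 64 lost the call under at least 1; no named gene that was called reversed. The number of genes called against no odor was 1851 and came to 653 where all 36 libraries were fitted together, 1114 with scaling to receptor genes (438 higher and 676 lower), and 839 to 1743 with 1 library left out of either group; the cause was not tested. Receptors called numbered 113, and 79 to 141 over the alternatives, and 77 of the 101 called higher remained with all 36 libraries. Receptors called against floral numbered 18 and came to 45 with no filter on low counts, and those called against mint numbered 18 and came to 45 with DESeq2 and 78 with no filter. Other alternatives left the counts within 1.5 times. The difference in the receptor share of counts, 0.140 percentage points, stayed between 0.111 and 0.166. Fitting the replicate number as a replicate block gave 1454 genes called, 106 receptors against no odor, 18 against floral and 16 against mint, so the block changed no count by over 1.5 times. Receptors with few counts limit the list: 247 could not be tested.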

Other observations

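Some genes outside the report's lists, chosen after their values were seen, stood out by library. Gm6619 was at 0, 81.6 and 154 CPM in the floral-mint libraries, at 128, 1.28 and 11.6 CPM with floral, and at 0.0712, 0.488 and 0.399 CPM with no odor. 5430401F13Rik had the same pattern, at 0, 39.9 and 72.8 CPM with floral-mint and 57.3, 0.155 and 3.81 CPM with floral. Both were called higher by edgeR (adjusted p = 0.0221 and 0.0334) though floral-mint replicate 1 was at 0. Ighv1-64, an immunoglobulin segment, was at 9.57 CPM in floral-mint replicate 1 and at 0.196 and 0.51 CPM in the other floral-mint libraries.

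Gm13757, a predicted gene, followed the mint pattern of the receptors: it was at 1.25, 1.92 and 2.27 CPM with no odor, 29.5, 9.12 and 27.6 CPM with floral-mint, 35.9, 30.2 and 47.6 CPM with mint and 0.935, 2.22 and 1.52 CPM with floral.

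A pair of T cell receptor genes, also picked after their values were seen, was near 0 in the control libraries. Tcrg-C1, a constant segment of the gamma chain, was at 0.0356, 0.0376 and 0.159 CPM with no odor and 1.58, 1.45 and 0.55 CPM with floral-mint (edgeR adjusted p = 0.00227). Trdc, that of the delta chain, was at 0.214, 0.188 and 0.0399 CPM against 2.16, 1.33 and 0.432 CPM (edgeR adjusted p = 0.00698). The levels with mint were 1.39, 1.52 and 1.8 CPM for Tcrg-C1 and 1.05, 1.99 and 2.3 CPM for Trdc. The list of 15 B and T lymphocyte markers had 0 called by edgeR and by DESeq2 and 2 higher and 1 lower at an unadjusted p under 0.05.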
